A study of Rattus norvegicus with 33 samples.

Results

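The bacteria described here are Turicibacter and its relatives in the family Erysipelotrichaceae, read from shotgun sequencing of cecal contents in 33 rats. Members were every taxon filed under the genus Turicibacter or the families Erysipelotrichaceae, Turicibacteraceae and Coprobacillaceae, leaving out the genus Erysipelothrix. That gave 9 of 5543 bacterial species and 7 of 1455 bacterial genera. All of them, Turicibacter included, stood in Erysipelotrichaceae in the deposited classification, and no taxon stood under the other family names. The rule used no measured value.

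SHR, the spontaneously hypertensive rat, is a strain bred for its raised blood pressure, and WKY, the Wistar-Kyoto rat, is the related strain with normal pressure that serves as its control. Each strain was sampled in both sexes at 14 to 15 weeks of age, giving 10 females and 7 males of SHR and 9 females and 7 males of WKY. The labels list no drug, diet or allele beyond strain and sex, and they give no cage or litter, so rats of a group may have shared a cage. Each library is 1 rat at 1 time, and strain differences stand for these animals and not for blood pressure itself.

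Turicibacter is a spore-forming bacterium of the small and large intestine of rodents. Strains of it are known to cleave bile salts and to alter bile acids, the detergents that carry dietary fat, and colonisation with some strains has lowered blood lipids in mice. The other Erysipelotrichaceae are fermenters of the lower gut whose abundance is known to follow dietary fat in rodents. None of these functions was measured by taxon here, and reads of a taxon are a share of the DNA in the sample, so a lower share and fewer cells cannot be told apart.

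Levels are given as percent of the reads that the authors assigned to any organism. Libraries held between 163140 and 886827 assigned reads, and SHR was the shallower strain: its median was 365717 for females and 547938 for males, against 706634 and 688051 for WKY. The 3 shallowest were replicates 9 and 10 of the SHR females and replicate 4 of the SHR males. Replicate numbers follow the order of deposit, and the labels give them no other meaning. In SHR females that order goes with depth. Replicates 1 to 4 held 467250 to 705111 assigned reads, and replicates 5 to 10 held 163140 to 384965. The least read member in any library, Intestinibaculum, had 52 reads there, and every member passed the filter on low values.

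The 7 genera together took 2.05% ± 1.04 (SD, n = 33) of assigned reads, from 0.704% to 4.83%. Turicibacter made up 54.7% ± 12.6 of these member reads and Faecalibaculum 23.02% ± 12.7 (SD, n = 33). Turicibacter ranked 14 among all 1455 genera by its mean of 1.15%, and Faecalibaculum ranked 31 with a mean of 0.511%. Erysipelatoclostridium followed with 0.169%, Longibaculum with 0.0815%, Faecalitalea with 0.0561%, Amedibacterium with 0.0548% and Intestinibaculum with 0.0253%. At the species level the leaders were Turicibacter sp. H121 at 0.679%, Faecalibaculum rodentium at 0.511% and Turicibacter sanguinis at 0.318%. Erysipelatoclostridium split into [Clostridium] innocuum, an opportunist of the human gut, at 0.120% and E. ramosum, a gut commensal, at 0.0487%. Longibaculum, Faecalitalea, Amedibacterium and Intestinibaculum were each read from a single species, so their genus and species values are the same.

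**Figure D1:**
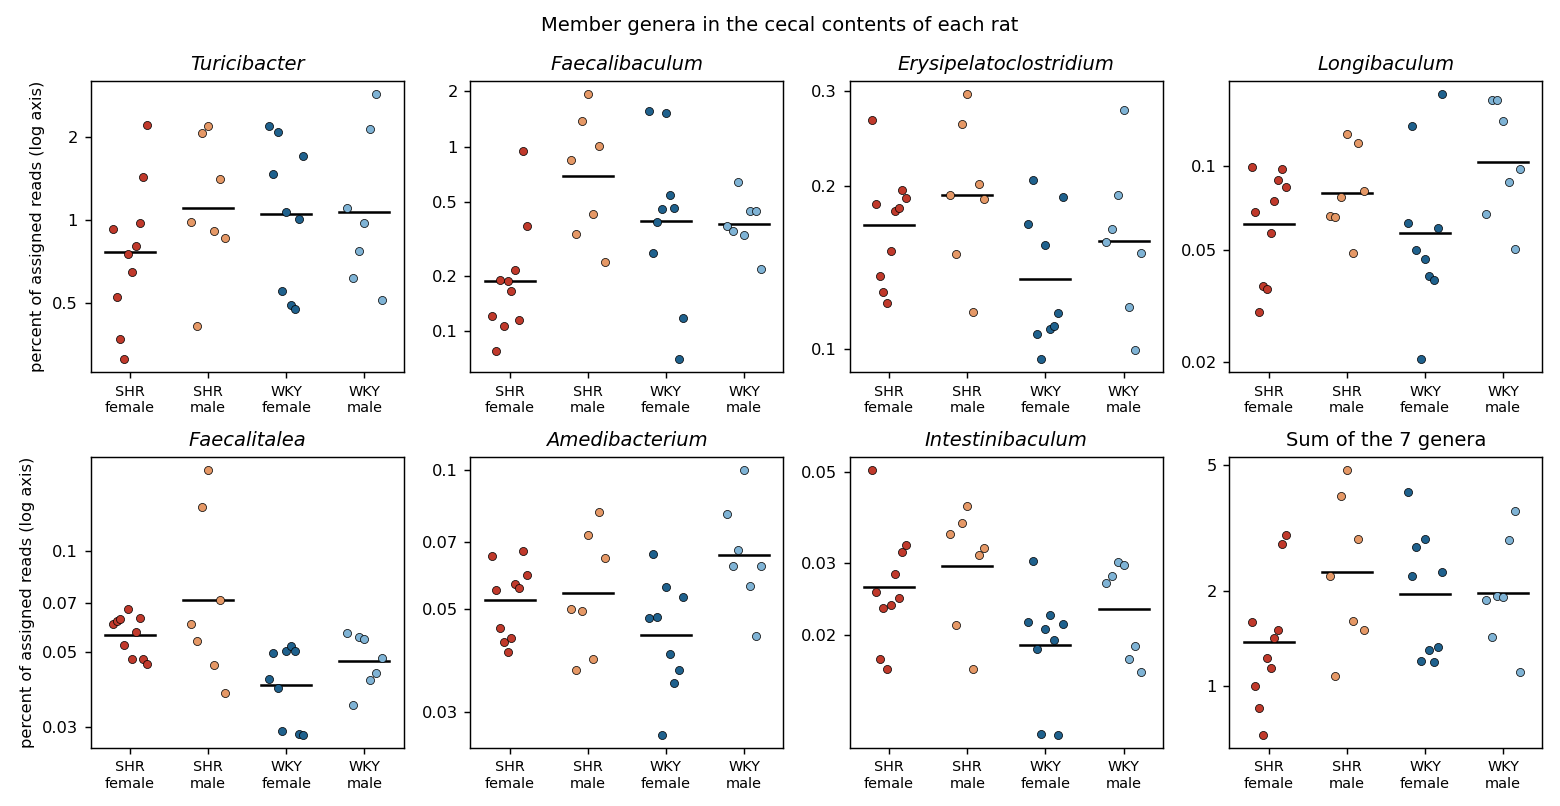
Percent of assigned reads (log axis) of each member genus and of their sum, with 1 point per rat, grouped by strain and sex (SHR 10 females and 7 males, WKY 9 and 7); black lines are geometric means. All groups overlap in every panel. For Faecalibaculum, 9 of 10 SHR females lie below the medians of SHR males and of WKY females, the exception being replicate 9 at 0.945%. The lowest rat in that panel is a WKY female at 0.0710%.

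The members differed widely in how far they varied from rat to rat. Faecalibaculum spanned 27.1-fold between its lowest and highest rat, Turicibacter 9.14-fold and Longibaculum 8.69-fold, while Erysipelatoclostridium spanned 3.08-fold and Amedibacterium 3.72-fold. Within groups, the SD of log2 normalized reads was 1.11 for Faecalibaculum and 0.99 for Turicibacter, against a median of 0.47 over the 1418 genera tested. The SD of Faecalibaculum was larger than that of 99.2% of those genera and the SD of Turicibacter larger than that of 98.0%. The SD of Amedibacterium was 0.35, below that median. The leading members were thus among the most variable genera in the cecum, and the interval of any group difference in them is wide.

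Differences between groups were tested with limma on log2 of the deposited normalized reads plus 1, over 4641 species and 1418 genera, with Benjamini-Hochberg adjustment over each whole table and a threshold of 0.05. A log2 difference below is on that scale unless percent is named. No member species and no member genus passed in any of the 5 comparisons, which were SHR against WKY within each sex, females against males within each strain, and the strain by sex interaction. Between SHR and WKY females 2.33% of all species (108) and 0.917% of genera (13) passed, and between SHR and WKY males 0.539% of species (25) and 0.0% of genera. Between the sexes 0.0% of species and of genera passed in SHR, and 0.711% of species (33) and 2.4% of genera (34) in WKY. For the interaction 0.0215% of species (1) and 0.0% of genera passed. With so few calls in the whole table, 0 of 9 species or 0 of 7 genera lies near the background.

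At an unadjusted p under 0.05, limma gave 2, 3, 1, 2 and 1 of the 9 member species in these 5 comparisons in the order named, and 1, 2, 1, 2 and 2 of the 7 genera. Over all species the shares at that p were 16.9%, 13.7%, 3.6%, 14.0% and 6.64% in the same order, and over all genera 16.4%, 11.6%, 3.17%, 13.5% and 6.14%. With so few members, 1 call more or less moves their share by over 10 percentage points, and nothing is read from these counts. In the tables with no call at all, the unadjusted count was 164 genera between SHR and WKY males, 167 species and 45 genera between the sexes in SHR, and 87 genera for the interaction. Of 2 count-based tools run on the recovered reads, edgeR called 1 member genus, Amedibacterium, between the sexes in WKY, where it called 2.89% of all genera (41). DESeq2 called 1 member species between SHR and WKY females, Faecalibaculum rodentium, where it called 5.26% of all species (244), and 1 between the males, Amedibacterium intestinale, where it called 3.75% (174). In those otherwise empty tables edgeR called 13 genera and DESeq2 26 between the males, both called 0 in SHR between the sexes, and for the interaction edgeR called 0 genera and DESeq2 2.

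Turicibacter, the most abundant member, differed less between groups than between rats of a group. In SHR females it ranged from 0.314% to 2.23% with a median of 0.779%. In SHR males it ranged from 0.415% to 2.19% with a median of 0.985%. WKY females ran from 0.476% to 2.20% with a median of 1.07%, and WKY males from 0.515% to 2.87% with a median of 0.976%. The ranges overlap almost entirely, although 8 of 10 SHR females lay below the WKY female median.

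Per size factor, the log2 difference of Turicibacter between SHR and WKY females was -0.84 ± 0.44 (SE; 95% interval -1.74 to 0.05; limma adjusted p = 0.332). In males it was -0.36 ± 0.51 (95% interval -1.40 to 0.68; adjusted p = 0.877), and the interaction was -0.48 ± 0.67 (adjusted p = 0.959). On the percent scale the values were -0.46 in females and 0.05 in males. An exact 2-sided permutation test of log2 percent gave p = 0.255 in females and 0.921 in males, and adjusted over 12 such tests 0.511 and 0.961. Between the sexes the log2 percent differed by -0.53 in SHR (exact permutation p = 0.216, adjusted 0.511) and by -0.02 in WKY (exact permutation p = 0.961, adjusted 0.961). The intervals allow a strain difference of more than 1 log2 unit in either sex.

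The scale matters for every strain comparison. Across all tested genera the median log2 difference was -0.05 in females and -0.01 in males per size factor, but 0.32 and 0.38 on the percent scale. On the percent scale 10.9% of genera passed in females, 150 higher and 4 lower in SHR, against 6 higher and 7 lower per size factor. In males 5.22% passed, 73 higher and 1 lower. No member genus was among either set. Relative to these medians the strain differences of Turicibacter were negative on either scale in females and in males, though none of them passed. The sign of the strain difference turned between the scales for Erysipelatoclostridium in both sexes, for Longibaculum and Amedibacterium in females, and for Turicibacter and Intestinibaculum in males. Ratios between members, and the log2 differences between the sexes, hardly move with the scale. The calls can move: between the sexes in WKY 34 genera (2.4%) passed per size factor and 0 on the percent scale.

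**Figure D2:**
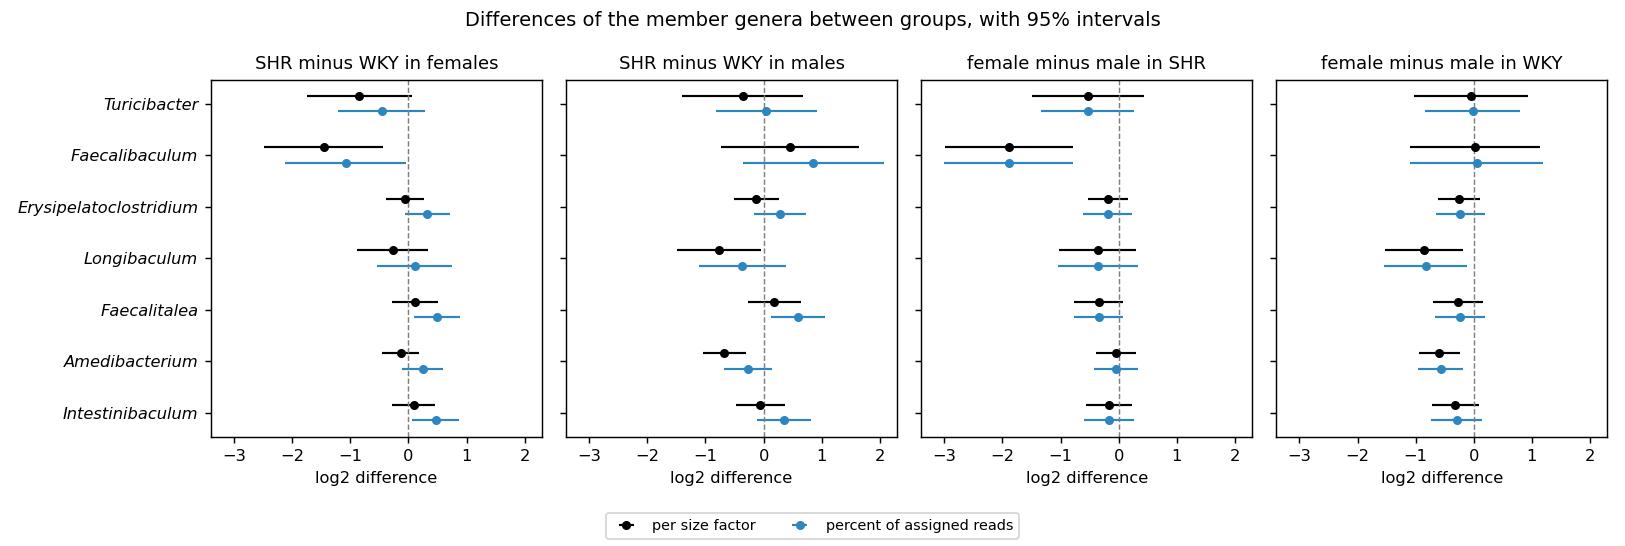
Log2 difference of each member genus in 4 comparisons, per size factor (black) and as percent of assigned reads (blue), with 95% intervals from limma. The strain differences shift to the right on the percent scale, the sex differences do not, and the difference farthest from 0 is that of Faecalibaculum between SHR females and males, at -1.89 on either scale.

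Faecalibaculum, read as F. rodentium, a lactate-forming commensal of the rodent colon, had the largest log2 difference of any member in the comparisons that include SHR females. SHR females ranged from 0.0787% to 0.945% with a median of 0.176%, and SHR males from 0.239% to 1.92% with a median of 0.843%. In WKY females it ranged from 0.0710% to 1.56% with a median of 0.461%, and in WKY males from 0.217% to 0.642% with a median of 0.372%. Of the 10 SHR females, 9 lay below the median of the SHR males and 9 below that of the WKY females, the exception each time being replicate 9. WKY males kept within a narrow band, and WKY females held both the lowest and some of the highest values of the series.

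Between SHR females and males the log2 difference of the genus was -1.89 ± 0.54 (SE; 95% interval -2.99 to -0.79). Its unadjusted limma p was 0.00141, and its adjusted p, over a table in which 0.0% of genera passed, was 0.989. Between SHR and WKY females it was -1.46 ± 0.50 (95% interval -2.48 to -0.44; unadjusted p = 0.0066, adjusted p = 0.146), and between the males 0.45 ± 0.58 (adjusted p = 0.863). The interaction was -1.91 ± 0.77 (unadjusted p = 0.0185, adjusted p = 0.697). Over 43 alternatives, most of which leave out 1 rat each, the adjusted p for the strain difference in females ran from 0.00128 to 0.213. Of these 43, 2 passed, and the log2 difference ran from -2.88 to -1.08. For the sex difference in SHR the adjusted p ran from 0.00224 to 0.9997. There 1 of the 43 passed, and the log2 difference ran from -2.48 to -1.65.

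Depth moved with these values. Without the 3 shallowest libraries the strain difference of Faecalibaculum in females was -1.87 (limma adjusted p = 0.0254), a fit in which 4.02% of genera passed. With log10 of assigned reads as a covariate it was -2.88 (adjusted p = 0.00128), and that of Turicibacter was -1.78 (adjusted p = 0.0189), a fit in which 12.6% of genera passed. With that covariate the sex difference of Faecalibaculum in SHR was -2.48 (adjusted p = 0.00224), the single genus that passed of 1418, or 0.0705%. The covariate assumes that level follows depth with the same slope in all groups, which the next values bear on directly.

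Within SHR, rats with fewer assigned reads had a higher percent of Turicibacter, and assigned reads are also the denominator of that percent. The reads of Turicibacter themselves were 2341 in the shallowest SHR female and 2215 in the deepest. They were 5824 in the shallowest SHR male and 2711 in the deepest. The deepest SHR male and the deepest SHR female had the lowest levels of their groups, 0.415% and 0.314%, and the shallowest SHR male, replicate 4, had the highest, 2.19%. Among the 10 SHR females the correlation of log2 percent with log10 assigned reads was r = -0.90 (permutation p = 0.0005) and rho = -0.92 (permutation p = 0.00052). Among the 7 SHR males it was r = -0.88 (exact permutation p = 0.000794) and rho = -1.0 (exact permutation p = 0.000397, the smallest that 5040 arrangements can give). Adjusted over 8 relations, the values of p were 0.00317 for r and 0.00208 for rho in either sex. Leaving out the 2 libraries farthest from the median depth, r was -0.89 in females and -0.91 in males. Depth in SHR females also followed the order of deposit. Turicibacter ranged from 0.314% to 0.928% in replicates 1 to 4 and from 0.649% to 2.225% in replicates 5 to 10. Within each of these sets the deepest library had the lowest level. Whether the level goes with depth or with the order of deposit was not tested.

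In WKY the same relation was not seen at this number of rats. Turicibacter gave r = -0.30 (exact permutation p = 0.454, adjusted 0.519) and rho = -0.13 (exact permutation p = 0.744) in the 9 females, where r turned to 0.11 without the 2 farthest libraries. In the 7 males it gave r = 0.52 (exact permutation p = 0.236, adjusted 0.315) and rho = 0.68 (exact permutation p = 0.11), and r was 0.26 without the 2 farthest. WKY males spanned a narrow depth, from 627705 to 773359 reads. Whether the relation differs between strains was not tested.

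Faecalibaculum had the same sign in SHR. Its r was -0.82 in SHR females (permutation p = 0.00249, adjusted 0.00664), -0.65 without the 2 farthest libraries, and its rho was -0.66 (permutation p = 0.0437, adjusted 0.0699). In SHR males r was -0.88 (exact permutation p = 0.00397, adjusted 0.00794), also -0.88 without the 2 farthest, and rho was -0.96 (exact permutation p = 0.00278, adjusted 0.00741). In WKY females r was -0.70 (exact permutation p = 0.0358, adjusted 0.0573) and -0.29 without the 2 farthest, and rho was -0.70 (exact permutation p = 0.0433, adjusted 0.0699); neither passed after adjustment. In WKY males r was -0.24 (exact permutation p = 0.625, adjusted 0.625) and rho was -0.04 (exact permutation p = 0.963, adjusted 0.963). Over all tested genera the median r was 0.19 and 0.02 in females and males of SHR, and -0.10 and -0.40 in those of WKY. The share of genera with an r below that of Turicibacter was 1.55% and 2.19% in females and males of SHR, and 34.6% and 98.6% in those of WKY. For Faecalibaculum these shares were 6.35% and 2.4% in SHR, and 4.37% and 73.0% in WKY. These relations were looked for after the values had been seen, and what sets the number of assigned reads of a library was not tested.

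**Figure D3:**
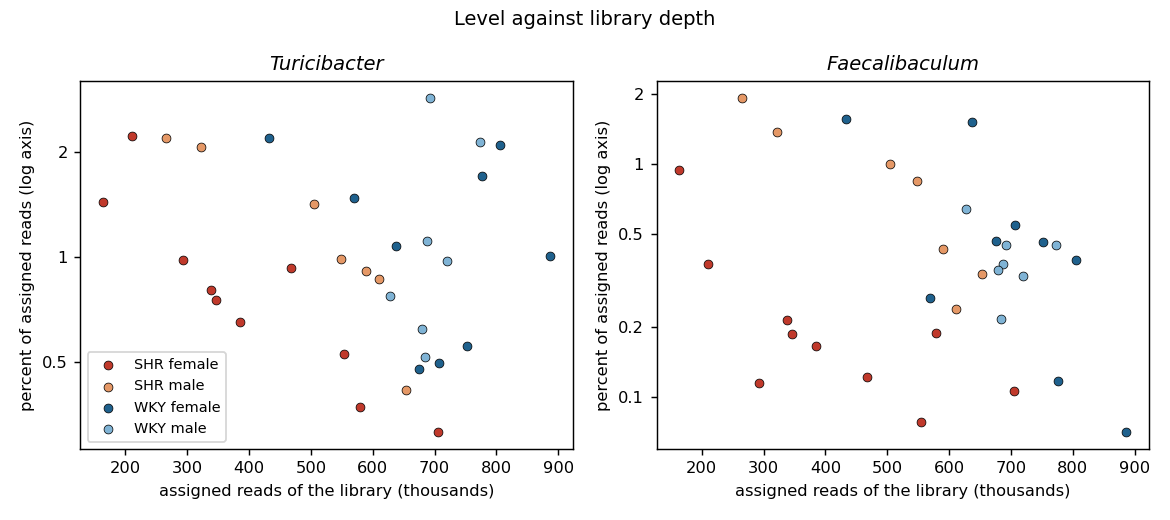
Percent of assigned reads (log axis) of Turicibacter and Faecalibaculum against the assigned reads of each library (axis in units of 1000 reads), with 1 point per rat. In SHR of either sex the level falls as depth rises, from 2.19% in the shallowest SHR male to 0.415% in the deepest for Turicibacter; the WKY libraries sit at greater depth with a wide spread of levels.

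The balance of Turicibacter with Faecalibaculum, taken within each library, differed between the sexes of SHR. Among SHR females there were between 1.52 and 8.49 Turicibacter reads for each Faecalibaculum read, with a median of 3.97. Among SHR males there were between 1.14 and 3.61, with a median of 1.41. The ranges overlap, and the log2 ratio was 1.36 higher in females, 2.03 ± 0.83 (SD, n = 10) against 0.68 ± 0.60 (SD, n = 7), with an exact 2-sided permutation p of 0.00314 and 0.0126 adjusted over 12 tests. In WKY females the ratio ranged from 0.708 to 14.5, with a median of 1.41 like that of SHR males. In WKY males it ranged from 1.21 to 6.41, with a median of 2.94. The log2 difference between the sexes of WKY, -0.07, did not pass (exact permutation p = 0.921, adjusted 0.961). Between strains the log2 ratio was 0.62 higher in SHR females (exact permutation p = 0.322, adjusted 0.552) and differed by -0.81 in males (exact permutation p = 0.0589, adjusted 0.177).

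Romboutsia, a spore-forming resident of the rat ileum and no relative of Turicibacter at the family level, was the genus whose pattern was most like that of Turicibacter. After group means were subtracted, log2 normalized reads of the pair correlated at r = 0.96 over 33 rats, and at 0.95 on the percent scale. The next most alike of 77 abundant genera were Enterococcus at 0.90, Streptococcus at 0.87, Adlercreutzia at 0.87 and Clostridium at 0.85. These values describe libraries that share depth and normalization, and on the percent scale they were 0.79, 0.65, 0.83 and 0.77. For Faecalibaculum the highest value was 0.59, with Adlercreutzia.

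Although the pair varied together, the number of Turicibacter reads per Romboutsia read was lower in WKY males than in SHR males and in WKY females. It was between 0.169 and 0.251 in the 7 WKY males, with a median of 0.217. It was between 0.269 and 0.415 in the 7 SHR males, with a median of 0.352, and these groups do not overlap. The log2 ratio was 0.71 higher in SHR males, -1.51 ± 0.20 against -2.22 ± 0.20 (SD, n = 7 each), with an exact 2-sided permutation p of 0.000583, the smallest that 3432 splits can give, and 0.00699 adjusted over 12 tests.

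WKY females lay between 0.186 and 0.454 with a median of 0.319, and overlapped the WKY males through replicate 9 alone. Their log2 ratio was 0.61 above that of WKY males (exact permutation p = 0.00315, adjusted 0.0126). SHR females lay between 0.255 and 0.480 with a median of 0.399. They differed from WKY females by 0.14 (exact permutation p = 0.375, adjusted 0.562) and from SHR males by 0.05 (exact permutation p = 0.707, adjusted 0.943). Whether the strain difference differs between the sexes was not tested. Romboutsia itself, at a mean of 3.96%, had limma log2 differences of -0.99 in females (adjusted p = 0.276) and -1.06 in males (adjusted p = 0.46), and reached 17.03% in 1 WKY male.

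**Figure D4:**
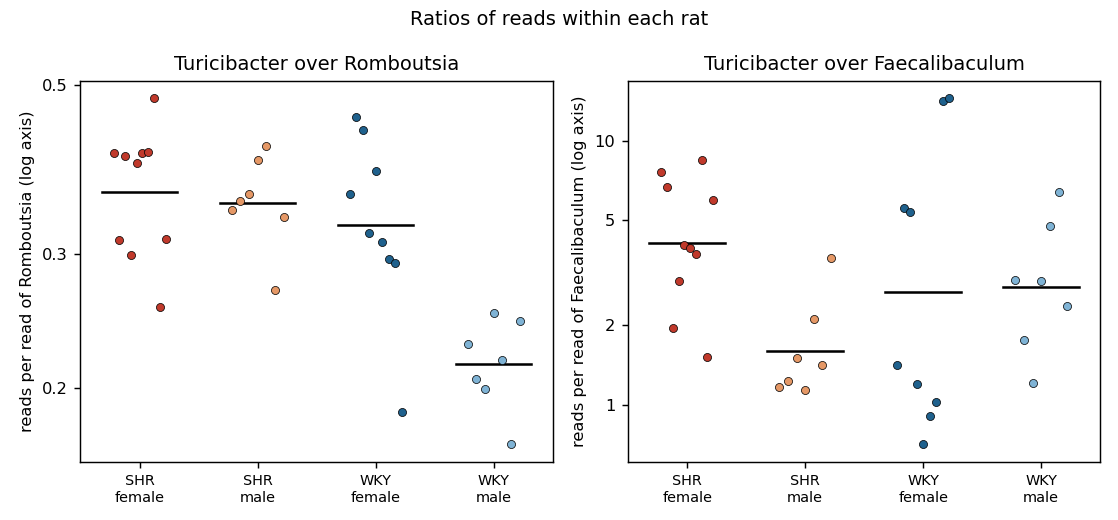
Reads of Turicibacter per read of Romboutsia (left) and per read of Faecalibaculum (right) in each rat, on log axes, with black lines at the geometric means. WKY males lie between 0.169 and 0.251 in the left panel, below all SHR males. In the right panel the medians are 3.97 in SHR females and 1.41 in SHR males. They are 1.41 in WKY females, whose values spread from 0.708 to 14.5, and 2.94 in WKY males.

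The Turicibacter species moved as a single unit. Reads of Turicibacter sp. H121 outnumbered those of T. sanguinis, the type species, by 2.12 ± 0.14 to 1 (SD, n = 33), and the ratio stayed between 1.76 and 2.37 while the level of the genus changed 9.14-fold. Its mean in SHR was 2.17 ± 0.13 for females and 2.14 ± 0.13 for males, and in WKY 2.05 ± 0.17 and 2.13 ± 0.11, all within 1 SD of each other. After group means were subtracted, the log2 levels of this pair correlated at r = 0.996 per size factor and 0.994 on the percent scale over 33 rats. A further 13.3% ± 0.83 (SD, n = 33) of the genus reads were named to no species. Related genomes share sequence, so how the classifier divides reads between them can fix such a ratio, and whether it did here was not tested.

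Longibaculum and E. ramosum were the other close pair, although they stand in different genera. There were 1.70 ± 0.31 Longibaculum reads for each E. ramosum read (SD, n = 33), from 1.09 to 2.29, and r was 0.92 per size factor and 0.93 on the percent scale. The species that share the name Erysipelatoclostridium were less alike. [Clostridium] innocuum and E. ramosum correlated at 0.21 per size factor and 0.32 on the percent scale, and their ratio ran from 0.797 to 5.31. [Clostridium] innocuum was closer to Intestinibaculum, a genus first grown from the pig intestine, at 0.70 and 0.75 on these scales. Amedibacterium correlated at 0.69 with Intestinibaculum and at 0.68 with Longibaculum per size factor, and at 0.74 with each on the percent scale. With Turicibacter sp. H121 it correlated at 0.66 per size factor but at 0.39 on the percent scale, so that value moves with the scaling. F. rodentium was near 0 with Longibaculum and with E. ramosum, at -0.09 each per size factor and at -0.04 and -0.05 on the percent scale. With Turicibacter sp. H121 it stood at 0.44 and 0.39. All of these are descriptions over the same 33 libraries.

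**Figure D5:**
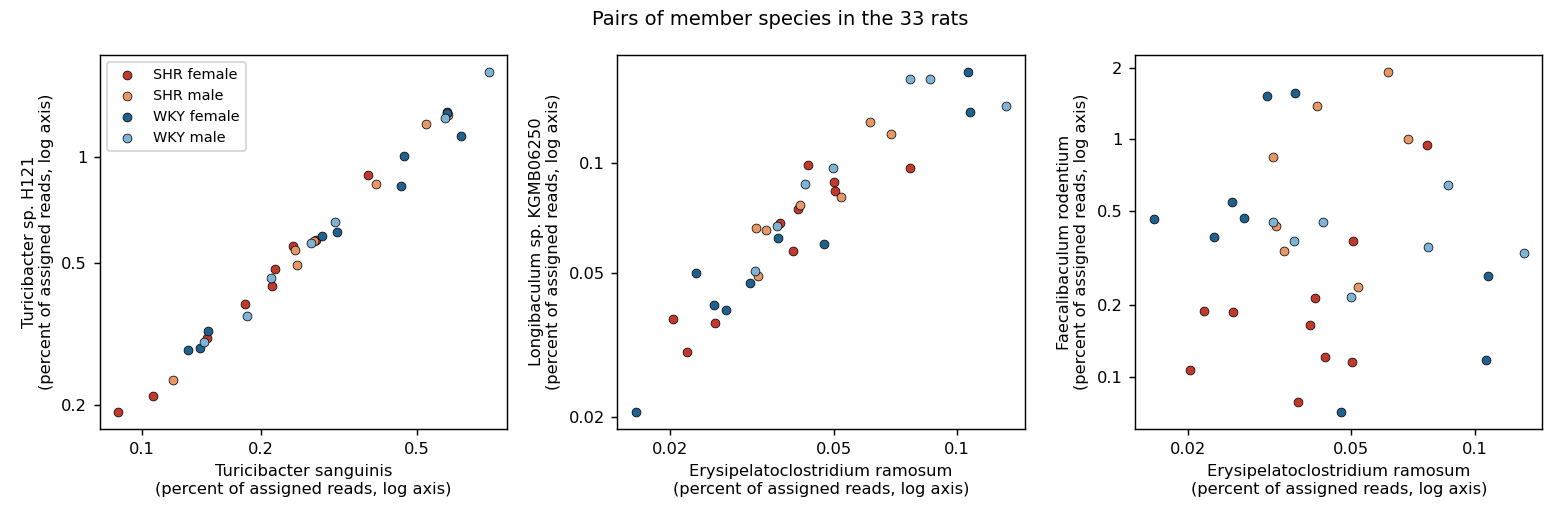
Percent of assigned reads (log axes) of pairs of member species, with 1 point per rat coloured by group. The Turicibacter species fall on a line with a ratio between 1.76 and 2.37, Longibaculum follows E. ramosum with ratios between 1.09 and 2.29, and Faecalibaculum rodentium shows no such line with E. ramosum.

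Among the minor members, Amedibacterium, a human gut genus of low abundance, came nearest to a call. WKY males ranged from 0.0439% to 0.1% with a median of 0.0621%, WKY females from 0.0269% to 0.0660% with a median of 0.0479%, SHR males from 0.0370% to 0.0813% with a median of 0.0502%, and SHR females from 0.0404% to 0.0668% with a median of 0.0554%. WKY males held the highest rat, and the ranges overlap in every comparison. The log2 difference between WKY females and males was -0.59 ± 0.17 (SE; limma adjusted p = 0.0532), and 8 of 9 females lay below the male median. Its adjusted p ran from 0.0202 to 0.219 over 43 alternatives, of which 13 passed. Between SHR and WKY males the log2 difference was -0.68 ± 0.18 per size factor and -0.27 on the percent scale. Per size factor its limma adjusted p was 0.0734. Over the 43 alternatives the adjusted p ran from 0.0297 to 0.347, and 4 passed.

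Longibaculum differed by -0.85 ± 0.33 between WKY females and males (unadjusted p = 0.015, limma adjusted p = 0.219) and by -0.77 ± 0.35 between SHR and WKY males (adjusted p = 0.392). Its medians were 0.0973% in males and 0.05% in females of WKY, and 0.0770% and 0.0717% in those of SHR. WKY females held both the lowest rat, at 0.0206%, and the highest, replicate 9 at 0.179%. Without that replicate the sex difference in WKY was -1.08 and passed (limma adjusted p = 0.0319).

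Faecalitalea, read as F. cylindroides, a butyrate former, ranged from 0.0380% to 0.173% in SHR males and from 0.0286% to 0.0673% in the other groups together. Its strain differences were 0.11 in females (limma adjusted p = 0.837) and 0.19 in males (adjusted p = 0.84) per size factor. On the percent scale they were 0.49 (adjusted p = 0.0828) and 0.59 (adjusted p = 0.0919), where all 10 SHR females lay above the WKY female median. Erysipelatoclostridium had log2 differences between -0.25 and -0.05 in the 4 comparisons of groups, and Intestinibaculum between -0.32 and 0.09, with no adjusted p under 0.5 for either per size factor. On the percent scale the strain differences of Erysipelatoclostridium were 0.33 in females (limma adjusted p = 0.229) and 0.28 in males (adjusted p = 0.373). Those of Intestinibaculum were 0.47 (adjusted p = 0.103) and 0.35 (adjusted p = 0.291).

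Erysipelothrix, the animal pathogen of the same family that the rule leaves out, took 0.0618% of assigned reads, a level like that of the minor members. It differed by -0.40 between SHR and WKY females (limma adjusted p = 0.363) and by -0.05 between the males (adjusted p = 0.981).

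Other genera with species known for bile salt hydrolase gave 0 of 9 calls by limma between SHR and WKY females and 0 of 9 between the males, with 3 of 9 at an unadjusted p under 0.05 in each. Over all genera 0.917% and 0.0% were called and 16.4% and 11.6% had such a p. Their median log2 difference was -0.24 in females and -0.37 in males, beside medians of -0.05 and -0.01 over all genera and -0.13 and -0.12 over the 7 member genera. Limosilactobacillus had the lowest adjusted p, at -1.92 ± 0.50 in females (adjusted p = 0.0504) and -2.34 ± 0.58 in males (adjusted p = 0.0665). Between the sexes in WKY 1 of the 9, Bacteroides, was higher in females, by 1.37 ± 0.39 (limma adjusted p = 0.0483), where 2.4% of all genera (34) passed. The median of the list there was -0.34, of the opposite sign, beside 0.004 over all genera. A list of 9 other residents of the small intestine, which shares Limosilactobacillus, Lactobacillus, Ligilactobacillus, Enterococcus and Clostridium with the first, also gave 0 calls in either sex, with 4 and 3 at an unadjusted p under 0.05 and medians of -0.13 and -0.27. The shares over all genera given for the first list apply to it as well, and the lists are not independent of each other.

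The function table is not divided by taxon, so its values belong to the whole community. Of 31 functions named for lipids, sterols, choline or spores, 2 rose and 1 fell in SHR females against WKY females, where 8.42% of 1057 functions passed. None of the list passed in males, where 2.46% of all functions did. The list's share of calls is thus near the background. At an unadjusted p under 0.05 limma gave 6 of 31 in females and 7 of 31 in males. The share of all functions at that p is not given here, so nothing is read from these counts. Sporulation-associated proteins with broader functions rose by 0.38 ± 0.08 (limma adjusted p = 0.00369), from 162 ± 18.7 normalized reads (SD, n = 9) to 211 ± 25.02 (SD, n = 10). Phosphorylcholine incorporation in LPS rose by 0.67 ± 0.11 (adjusted p = 0.000474), from 63.7 ± 8.67 to 103 ± 18.1. Carnitine metabolism fell by 1.56 ± 0.33 (adjusted p = 0.00272), from 3.69 ± 2.32 to 0.599 ± 0.902, where the pseudocount weighs on the value. The median of the list was -0.02 in females, beside -0.04 over all functions.

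The authors' deposited table of their general model holds 1 row that bears on a member, and its names need care. Of 383 rows with a species' taxon number, the mean given in the row equals that species' mean normalized reads within 0.1% in all 383, but the species printed in the row is that of the number in 1. In the authors' deposited table the row numbered for Amedibacterium intestinale, with a mean of 291, prints another species' name and gives a log2 fold change of 0.75 with an adjusted p of 0.00313. The row of the authors' deposited table that prints Amedibacterium intestinale, with a log2 fold change of 1.68, has a mean of 34.4 against 291 for that species. The direction of these fold changes is not stated. In the authors' deposited table for females, rows matched by number had the sign opposite to the SHR minus WKY difference found here in 158 of 158 cases. In the authors' deposited table for males it was opposite in 30 of 30, so a positive value in either table is likely higher in WKY. In the authors' deposited table of the general model, the sign was opposite to that difference in 263 of 326 rows for females and in 301 of 326 for males, so the direction of its row for Amedibacterium is less settled.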

How the data were processed

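DNA from cecal contents of 33 rats was sequenced with Nextera libraries. The submitters' processing notes name FastQC 0.11.5, cutadapt 2.6, Trimmomatic 0.36, DESeq2 and the rat build Rnor_6.0; the classifier is not given in the sources used here. The authors deposited species, genus and phylum tables in percent, whose denominator, tested on the values, is all assigned reads of a library, of which bacteria made up 95.1% to 97.9%. The authors deposited a signal table of normalized reads per taxon and per function, which for taxa are reads divided by a size factor: all values gave whole reads within 0.01 read, equal in the percent and normalized tables. Deposited tables of comparisons hold a log2 fold change and an adjusted p-value per taxon.

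Taxa with at least 10 normalized reads in at least 7 rats were tested with limma 3.58.1 (trend, robust; 4 group means, R 4.3.3) on log2(value + 1). This value is not a count, so edgeR 4.0.16 and DESeq2 1.42.0 on recovered reads were alternatives. Others were pseudocounts of 0.5 and 10, no filter and a filter of 50, percent, centred log ratio, depth as a covariate, and leaving out the 3 shallowest libraries or each rat. Percent and ratio values of Turicibacter, with 0.5 read added, had exact 2-sided permutation tests. The limma step was tested on simulated data with the same dispersion for all taxa and no relation of level with depth. That test therefore does not show how well changes in the most variable members are found. All member genera over 0.01% and up to 12 species were named, with the 5 genera most like Turicibacter among those over 0.1%. Members and lists were chosen with earlier results of these data known. Python 3.11.15, numpy, pandas and scipy made the tables. Labels do not say whether rats were littermates; p-values measure the spread between these rats.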

Additional observations from a re-analysis of the deposited data

Results flagged for a closer look

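In 44 combinations of a member and a group, 4 held a rat far from the rest of its group by Dixon's criterion. It was taken on the percent itself and not on its log. Chance alone meets it in about 1 of 20 groups only where the values are normally distributed. Whether these percents are, and whether the flags hold on the log scale, was not tested. All were SHR females, replicates 1 and 9. The combinations are not independent, since reads of a species also count in its genus, so the number of flags is not read against chance. Replicate 9 had 0.945% of reads in Faecalibaculum against 0.0787% to 0.373% in the other 9, and its library was the shallowest of the series. Replicate 1 had 0.265% in Erysipelatoclostridium against 0.122% to 0.197%, of which 0.222% was [Clostridium] innocuum against 0.0961% to 0.148%. The same rat had 0.0507% in Intestinibaculum against 0.0165% to 0.0333%.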

How the results depend on the processing

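No member was called in any comparison by the limma test on normalized reads, and 16 of 100 alternative counts differed from 0. With depth as a covariate the calls were 3 species and 2 genera between SHR and WKY females, 1 species and 1 genus between the males, 1 and 1 between the sexes in SHR, and 1 genus between the sexes in WKY. That fit called 8.81% of all species and 12.6% of genera between the females, 2.0% and 0.423% between the males, 1 species and 1 genus in SHR, and 2.89% of genera in WKY. DESeq2 called 1 species in each strain comparison, beside 5.26% of all species in females and 3.75% in males. Without the 3 shallowest libraries there was 1 species and 1 genus between the females (of all, 4.4% and 4.02%), 1 genus between the males (0.705%) and 1 between the sexes in WKY (2.47%). A filter of 50, the centred log ratio and edgeR each called 1 genus between the sexes in WKY, where they called 27 of 664 genera (4.07%), 36 of 1418 (2.54%) and 41 of 1418 (2.89%). Leaving out each rat gave 0 to 1 species between SHR and WKY females (1 without SHR female 9 or WKY female 8) and between the sexes in WKY (1 without WKY female 9). It gave 0 to 1 genera between the males (1 without SHR male 6 or WKY male 7) and 0 to 2 between the sexes in WKY. Those genera were Amedibacterium without each of SHR males 2 and 6, SHR female 9, WKY males 3 and 7 and WKY females 2, 3 and 9, and Longibaculum also without the last; these fits called 1.76% to 4.23% of all genera there, 0.282% and 1.41% between the males, and of species 3.19% and 1.34% between the females and 1.21% in WKY.

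Turicibacter passed in SHR against WKY females with depth as a covariate, at -1.783. Its difference between the males turned from -0.359 to 0.047 on the percent scale and ran from -0.597 to 0.003 when each rat was left out. Its sex difference in WKY ran from -0.284 to 0.317. Its log2 percent difference between the males, 0.047, turned to -0.116 without the 3 shallowest libraries and ran from -0.129 to 0.284, and between the sexes in WKY from -0.199 to 0.214. The ratio to Romboutsia between the sexes in SHR ran from -0.016 to 0.103, and that to Faecalibaculum between the sexes in WKY from -0.376 to 0.169. The 3 ratio differences that passed did so in every alternative, with adjusted p of at most 0.014 for Romboutsia between the males, 0.0288 for Romboutsia in WKY and 0.0315 for Faecalibaculum in SHR.

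Other signs turned where the difference was not called. On the percent scale the differences between females were 0.326 for Erysipelatoclostridium, 0.105 for Longibaculum and 0.247 for Amedibacterium, and between males 0.284 for Erysipelatoclostridium, 0.35 for Intestinibaculum, 0.045 for Turicibacter sp. H121 and 0.034 for T. sanguinis, whose sex difference in WKY was 0.011. With depth as a covariate Faecalibaculum gave -0.425 between males and -0.02 between the sexes in WKY, Faecalitalea -0.149, Intestinibaculum -0.194 and [Clostridium] innocuum -0.086 between females, and Erysipelatoclostridium -0.039 for the interaction. Without the 3 shallowest libraries Faecalitalea gave -0.015 between males and 0.197 for the interaction, and [Clostridium] innocuum 0.061 for the interaction. Leaving out each rat, Erysipelatoclostridium ran from -0.116 to 0.034 between females and from -0.044 to 0.162 for the interaction, Faecalibaculum from -0.227 to 0.325 between the sexes in WKY, and Amedibacterium from -0.146 to 0.056 between the sexes in SHR. Faecalitalea ran from -0.015 to 0.354 between males and from -0.242 to 0.127 for the interaction, Intestinibaculum from -0.199 to 0.045 between males, and [Clostridium] innocuum from -0.139 to 0.056 for the interaction. Turicibacter sp. H121 ran from -0.602 to 0.008 between males and from -0.309 to 0.301 between the sexes in WKY, and T. sanguinis there from -0.249 to 0.339. The percent scale moved the strain differences of all genera together. Their median went from -0.05 to 0.32 in females and from -0.01 to 0.38 in males, and the strain turns on that scale go with this shift. What lay behind the other turns was not tested. No paired analysis was possible because replicate numbers only follow the order of deposit. Leaving out each rat in the permutation tests and the relations with depth were added after the data had been seen.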
